A study of Triticum aestivum with 15 samples.

Results

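Seeds of bread wheat (Triticum aestivum, cultivar Jimai 20) at 48 hours after imbibition (HAI), called P4, were compared with dry seeds that had taken up no water, called P0. The comparison used 6 of the 15 arrays of the series, 3 for each stage, and 61115 of the 61290 probe sets of the Affymetrix Wheat Genome Array, because 111 and 64 probe sets of 2 families of control sequences were left out. The P4 seeds had been steeped in sterile water for 12 hours and then kept in dishes with water, and by the description of the study they carried a green shoot and 3 radicles. The P0 seeds were of the same cultivar, were frozen without soaking and differed from P4 in water, time and growth together. Each array held total RNA of germinating seeds from a separate biological replicate, and the number of seeds behind a replicate was not given in the sources used here.

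A dry wheat grain is a living embryo and aleurone layer around a starchy endosperm that is already dead. It keeps messenger RNA made during maturation, much of it for storage proteins of the endosperm and for proteins that protect cells during drying. After water uptake, stored messengers decay, cell division begins in the root and shoot tips, and the reserves of the endosperm are broken down to feed the seedling. In RNA of such mixed tissue, fewer cells of a type and less RNA per cell cannot be told apart.

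The values were linear intensities from the MAS5 method, and each array had a trimmed mean close to 500. The median intensity was nevertheless between 64.8 and 78.0 on the P4 arrays and between 90.5 and 101 on the P0 arrays. The share of probe sets under an intensity of 32 was 33.2 to 38.3% at P4 and 28.7 to 31.9% at P0. The 100 brightest probe sets took 6.09 to 6.44% of the summed intensity at P4, against 10.2 to 10.9% at P0. Control sequences also moved with the stage: the geometric mean of the poly-A controls was 1755 to 1981 at P4 and 5678 to 5809 at P0, that of the hybridization controls was 4433 to 5229 at P4 and 7670 to 8849 at P0, and the 18S ribosomal probe set read 25325 to 27438 at P4 and 51943 to 61157 at P0. For the G6PDH control the 3′ probe set over the 5′ probe set was 23.6 to 37.1 at P4 and 8.19 to 10.8 at P0, and this ratio was 6.26 to 11.2 at P4 and 0.474 to 1.32 at P0 for actin, 0.432 to 2.24 at P4 and 0.0908 to 0.410 at P0 for GAPDH, and 0.703 to 0.822 at P4 and 0.466 to 0.528 at P0 for ubiquitin. None of these ranges overlapped, with an exact permutation p of 0.1 for each (two-sided, n = 3), the smallest p that 3 against 3 arrays allow. The ratio overlapped between the stages for the elongation factor and sucrose synthase controls, with an exact permutation p of 0.2 for both. Their part in the results was not tested. Arrays of the same stage correlated at 0.962 to 0.968 within P4 and 0.930 to 0.939 within P0 on the log2 scale over all probe sets, against 0.805 to 0.817 between the stages.

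Between the dry seed and the seedling, 24987 probe sets, or 40.9% of those tested, passed the threshold in limma at a Benjamini-Hochberg adjusted p under 0.05. Of these, 10407 (17.0% of all tested) were higher at P4 and 14580 (23.9%) were lower. The falls were more numerous, but the large changes were more often rises. A fitted log2 change of at least 1 was reached by 7609 rises and 10415 falls, one of at least 2 by 3521 rises and 3100 falls, one of at least 4 by 752 rises and 383 falls, and one of at least 6 by 155 rises and 67 falls. The arrays of the stages did not overlap at all for 11762 probe sets with P4 above (19.2%) and 18920 with P4 below (31.0%). All log2 changes were taken on log2(intensity + 16) as P4 minus P0, with the standard error (SE) of limma.

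**Figure D1:**
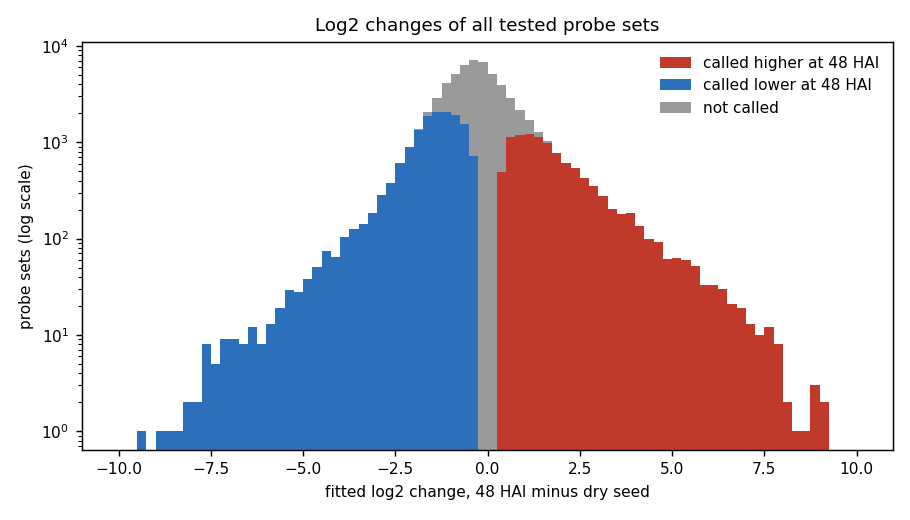
Histogram of the fitted log2 change, 48 HAI minus dry seed, over the 61115 tested probe sets (x axis in log2 units, y axis the number of probe sets on a log scale). Colours mark the 10407 probe sets called higher, the 14580 called lower and the 36128 not called, and the right tail past 4 holds more probe sets (752) than the left tail (383).

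The split between rises and falls depended on how the arrays were scaled. With the deposited scaling 41.6% of the called probe sets were higher at P4, against 61.0% with the array medians made equal, 73.9% with the hybridization controls made equal, 91.6% with the poly-A controls made equal and 49.0% after quantile normalization. Over all probe sets the median change was -0.30 on the log2 scale as deposited and -0.03, 0.15, 0.65 and -0.08 under these 4 scalings. Changes below are relative to the deposited scaling. A fall is described for a gene list only where the list median stayed below 0 under all 5 scalings, unless the sentence says otherwise.

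A small group of probe sets was near the floor in one stage and bright in the other. In 257 probe sets every P0 array was under 32 and every P4 array at 256 or more, and in 90 probe sets the reverse was seen. A further 6362 probe sets were under 32 on all 6 arrays, and 480 of these were called although neither stage gave a usable level. The dim readings were also the noisier ones: the median SD between replicate arrays was 0.25 at P4 and 0.36 at P0 over all probe sets on the log2 scale, and 0.18 at P4 and 0.25 at P0 over the 32999 probe sets with a mean of at least 64. A fold is the ratio of geometric means with every value under 32 set to 32, and is written "at least" where a value was set.

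Gene names could be given to few probe sets. The annotation table paired 1273 probe sets with 771 genes, and a readable name was found for 207 genes with 353 probe sets. Of the 195 genes placed in lists, 100 were named by a wheat symbol or synonym and 95 by a match to a rice gene in the tables of the study. The study put into those tables genes that it had found to differ on these same samples, so the direction of those 95 genes is not independent evidence. Among the 100 genes named by symbol, 39 were called higher and 36 lower, beside 17.0% and 23.9% of all probe sets. Where a gene had several probe sets, the one with the highest mean over the 15 arrays stands for it. Shares over all probe sets, many of them dim, are therefore not a like measure for named genes. Fitted alone, the 32999 probe sets with a mean of at least 64 gave 10449 rises and 11419 falls. The counts of the lists below stand beside these numbers, and no list was tested against them.

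**Figure D2:**
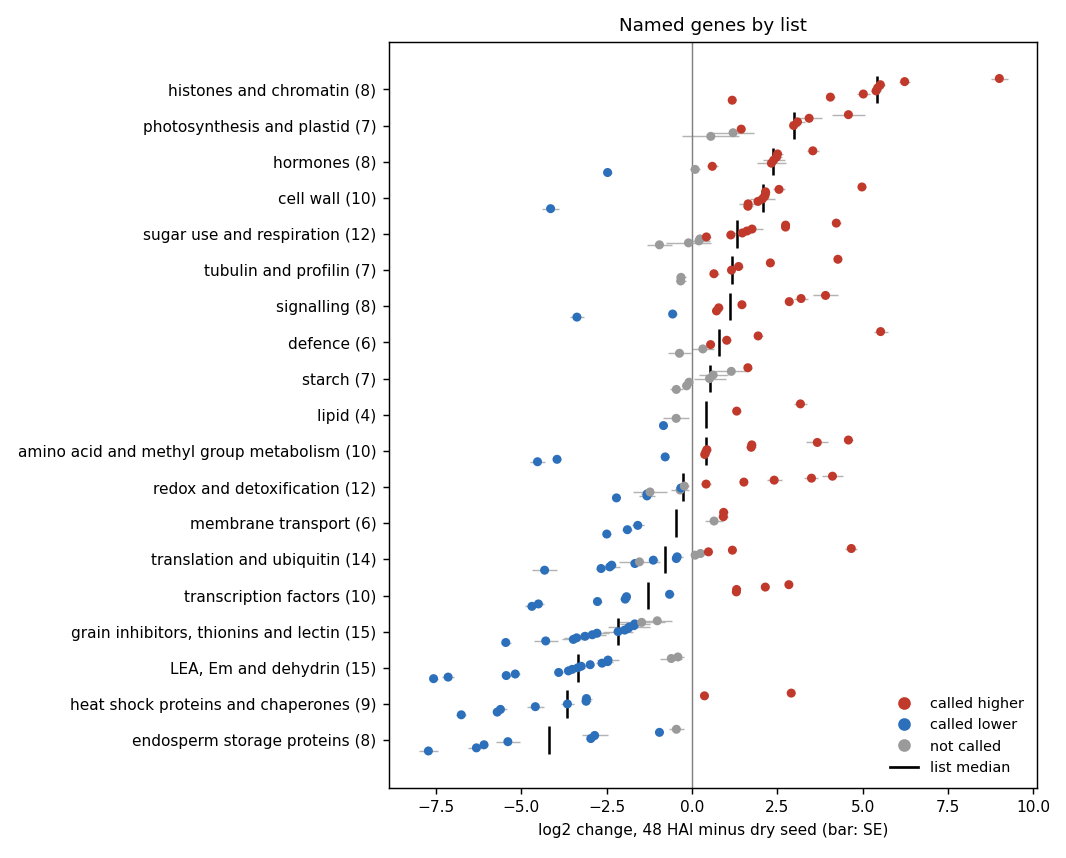
Log2 change, 48 HAI minus dry seed, of the named genes in 19 lists (x axis in log2 units, horizontal bars the SE, black bars the list medians, number of genes in brackets). Under the deposited scaling histones lie farthest to the right, with a median of 5.42, and storage proteins farthest to the left, with a median of -4.18. The medians of redox, membrane transport, translation and transcription factor genes change sign under another scaling.

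Messengers for proteins that protect the embryo during drying were among the largest falls. Of 15 genes for late embryogenesis abundant (LEA) proteins, Em proteins and dehydrins, 13 were lower at P4, none was higher and 2 were not called, with a median log2 change of -3.35; 10 of the 15 were named through the tables of the study. LEA proteins, to which Em proteins and dehydrins belong, are hydrophilic proteins that shield membranes and enzymes while a seed loses water. The Em gene EM read 368, 376 and 380 on the P4 arrays and 77441, 73754 and 71265 on the P0 arrays. It was among the brightest probe sets of the dry seed and fell 198-fold (log2 change -7.57, SE 0.13, adjusted p = 3.72e-12 in limma). Its relative EMH2 read 394, 332 and 505 at P4 and 67297, 57755 and 53883 at P0, a fall of 147-fold. Each of the 2 probe sets of EM and the 3 of EMH2 was called lower.

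Among the dehydrins, LOC542888 read 940, 969 and 1015 at P4 and 38450, 44268 and 46648 at P0, 44.1-fold lower at P4. Rab15, a dehydrin that responds to abscisic acid (ABA), read 7374, 6843 and 6696 at P4 and 46710, 42702 and 40739 at P0. It fell 6.22-fold (log2 change -2.63, SE 0.18, adjusted p = 1.01e-07) and so remained a bright probe set in the seedling. Of the other LEA genes, LOC542804 fell 37.5-fold and LEA1 5.55-fold. The 2 genes not called were the dehydrin COR410, under 32 on all 6 arrays, and the LEA gene LOC542946, with 213, 157 and 144 at P4 and 277, 193 and 227 at P0. A transcript that the study described as embryonic abundant protein 1 by a weak rice match (CD490513) read 11.6, 23.2 and 4.1 at P4 and 13290, 13270 and 11471 at P0, at least 395-fold lower at P4, with a log2 change of -8.83. A transcript with the rice description heavy metal-associated domain protein (CD921955), which was placed in no list, read 253, 240 and 196 at P4 and 31868, 38165 and 36373 at P0, 155-fold lower.

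Most heat shock protein genes were lower at P4. Of 9 chaperone genes, 7 were lower at P4 and 2 were higher, with a median of -3.65, and 7 were named through the tables of the study. The 7 that fell were 5 small heat shock proteins, which hold partly unfolded proteins in solution, and a pair of genes for HSP101, which pulls proteins out of aggregates. A class II protein (LOC543421) read 267, 181 and 226 at P4 and 25629, 26244 and 25370 at P0, a fall of 116-fold (log2 change -6.76, SE 0.15, adjusted p = 1.16e-11). A second class II gene (LOC543404) read 281, 267 and 274 at P4 and 14954, 14408 and 16061 at P0, 55.2-fold lower, and a class I gene (BQ246088) fell 26.4-fold. HSP101 (LOC542835) read 258, 188 and 175 at P4 and 9671, 12120 and 10553 at P0, 52.6-fold lower at P4. The other HSP101 gene (LOC542846) fell 9.18-fold. HSP16.9A, a class I protein, was called lower with 114, 171 and 109 at P4 and 1748, 1611 and 2067 at P0.

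The 2 chaperones that rose work in folding of new proteins. The delta subunit of T-complex protein 1, part of the ring-shaped chaperonin that folds tubulin and actin, read 3856, 3575 and 4418 at P4 and 474, 555 and 506 at P0, 7.71-fold higher at P4. FKBP70, a peptidyl-prolyl isomerase, rose 1.29-fold (log2 change 0.37, SE 0.10, adjusted p = 0.0103), and that call was lost when only the 6 arrays were fitted. A heat shock transcription factor (CK208279) stood with the small proteins, with 143, 241 and 185 at P4 and 4484, 4748 and 4414 at P0, and fell 24.5-fold.

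Of 8 storage protein genes of the endosperm, all named by symbol, 7 were lower at P4, none was higher and 1 was not called, with a median of -4.18. Gliadins and glutenins form the gluten of the grain and are made only while the endosperm fills. The gliadin Gli-D2-1 read 4.3, 3.8 and 16.2 at P4 and 3526, 6036 and 5653 at P0, at least 154-fold lower at P4, and all 3 seedling readings lay under 32. The gliadin Glia, which stayed above that floor, read 103, 134 and 115 at P4 and 9576, 9161 and 8445 at P0, a fall of 77.4-fold (log2 change -6.09, SE 0.13, adjusted p = 1.09e-11). The gliadin Gli-D2 read 7.5, 5.0 and 3.6 at P4 and 848, 883 and 909 at P0, at least 27.5-fold lower. The gamma-gliadin GAG56D fell at least 50.8-fold and the low molecular weight glutenin Glu-D3 fell 8.72-fold.

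Both avenin-like genes, of proteins related to the gliadins, were lower at P4. The gene avnla read 10.6, 18.7 and 76.1 at P4 and 321, 278 and 306 at P0, at least 7.05-fold lower. The gene avnlb read 4240, 3951 and 4356 at P4 and 7620, 8136 and 8573 at P0, 1.94-fold lower, and it was higher instead when the poly-A controls were made equal. The gliadin Gli-B2-11 was under 32 on all 6 arrays. Of the markers used to check the labels, gliadins, glutenin, Em proteins, dehydrins and LEA proteins, the called genes were above 32 on every P0 array, while Gli-B2-11 and the dehydrin COR410 were under 32 there. Of the markers of the seedling, histones and the photosystem genes PsbO and PsbP were bright in the samples labelled 48 HAI. Genes called lower have their higher readings at P0, and the markers were chosen with earlier results of these data known. The marker readings are therefore no independent check of the labels. No gene name in the tables used here matched rbcS or cab. The alpha-amylase transcripts that the study lists by accession could not be paired with a probe set through these tables and were not analysed here, so nothing can be said of their change. The amylase that could be paired was LOC543318, listed under synonyms of both an alpha-amylase and a beta-amylase, with 111, 78.4 and 74.7 at P4 and 101, 75.7 and 12.1 at P0. That gene was not called.

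Most genes for proteins that defend the grain were lower at P4. Of 15 genes for serpins, amylase and xylanase inhibitors, thionins and a lectin, 13 were lower at P4, none was higher and 2 were not called, with a median of -2.16. The lectin wheat germ agglutinin WGA2, a chitin-binding protein of the embryo, read 469, 533 and 631 at P4 and 23384, 26489 and 23384 at P0, a fall of 45.1-fold (log2 change -5.45, SE 0.14, adjusted p = 3.16e-11). The xylanase inhibitor XIP-I, which blocks fungal enzymes that digest the cell wall, read 14523, 13954 and 14165 at P4 and 50325, 43182 and 44764 at P0. It was thus still bright in the seedling and 3.24-fold lower, a call that was lost with the poly-A controls made equal. A gamma-thionin (LOC100125699), of a family of small antimicrobial peptides, fell 3.93-fold.

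Several inhibitors of the list were near the floor at P4. Serpin-Z1C, an inhibitor of proteases, read 5.3, 49.1 and 32.7 at P4 and 699, 722 and 932 at P0, at least 20.9-fold lower at P4. The thionins TTHV and THI1.1 fell at least 6.87-fold and 11.1-fold. The serpins Serpin-Z2B and Serpin-Z2A were not called, with log2 changes of -1.47 (SE 0.69) and -1.02 (SE 0.44). The median of this list stayed below 0 under all scalings, but with the poly-A controls made equal 8 of the 15 genes were called lower.

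**Figure D3:**
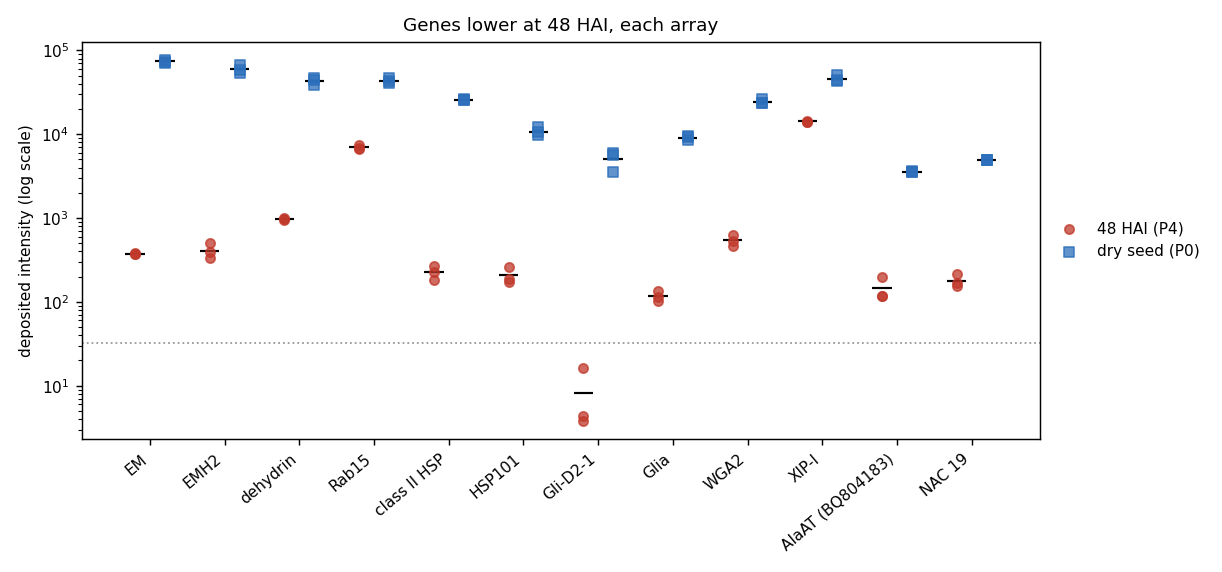
Deposited intensity on each array (log scale) of 12 genes called lower, with 3 P4 arrays (circles) left of 3 P0 arrays (squares) for each gene. Black bars are group means and the dotted line marks an intensity of 32. The groups do not overlap for any of the 12 genes, and Gli-D2-1 alone has all its P4 readings under 32, the highest at 16.2.

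Histones held 7 of the 15 largest named rises, among them the 2 largest. All 8 genes for histones and chromatin proteins were higher at P4, with a median log2 change of 5.42, and 6 of the 8 were named by symbol. A transcript that the study described as CARM1 by a weak rice match (CA651992) was kept out of this list and was called lower. Core histones H2A and H2B form the nucleosome, linker histones bind the DNA between nucleosomes, and most of them are made while DNA is copied. The linker histone gene LOC606310 read 16341, 14961 and 15771 at P4 and 29.5, 14.1 and 4.9 at P0, at least 490-fold higher at P4 (adjusted p = 4.27e-11). Its other probe set, TaAffx.128563.3.S1_at, was dim, with 13.5, 13.1 and 10.3 at P4 and 9.2, 14.6 and 48.4 at P0, and was not called. H2A-9 read 25474, 26525 and 25270 at P4 and 244, 382 and 375 at P0, 78.7-fold higher at P4, and all 6 of its probe sets rose. Of the other core histones, H2A-2 rose 54.9-fold and wcH2B-8 rose 33.6-fold with all 7 of its probe sets. wcH2B-6 was also called higher, with 15849, 14560 and 13708 at P4 and 966, 948 and 716 at P0.

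H2A-3 gave opposite readings from its 2 probe sets. The brighter one, Ta.27192.1.S1_at, read 14293, 14042 and 13923 at P4 and 268, 399 and 305 at P0, 44.1-fold higher at P4. The other, Ta.27192.1.S1_s_at, whose suffix marks probes shared by several transcripts, read 417, 483 and 426 at P4 and 849, 870 and 767 at P0, 1.88-fold lower. The same suffix is carried by probe sets that stand for other genes, among them LOC606310, EM and EMH2. The smallest rise of the list was that of Hmgb3, a high mobility group protein that bends DNA, at 2.27-fold.

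Tubulin genes changed by unequal amounts. Of 7 genes for tubulins and profilin, all named by symbol, 5 were higher at P4 and 2 were not called. Tubulins build the microtubules of the spindle and of the cell cortex, and profilin binds actin. The beta-tubulin tubb1 read 18272, 19994 and 17373 at P4 and 990, 966 and 874 at P0, a rise of 19.7-fold (log2 change 4.27, SE 0.12, adjusted p = 5.28e-11). The beta-tubulin tubb3 rose 4.93-fold, Tubb4 2.60-fold and Tubb5 2.24-fold. A further beta-tubulin, tubb2, read 17973, 18417 and 18963 at P4 and 25212, 21455 and 22649 at P0. Its log2 change of -0.32 (SE 0.15) was not called, and profilin gave -0.33 (SE 0.14), also not called; with the poly-A controls made equal both were called higher.

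Most genes that loosen or build the cell wall were higher at P4. Of 10 such genes 9 rose and 1 fell, with a median of 2.09, and 8 were named through the tables of the study. BRU1, a member of the family of xyloglucan endotransglucosylases that cut and rejoin wall polymers, read 5985, 5886 and 6176 at P4 and 219, 156 and 158 at P0, 34.4-fold higher at P4. The beta-expansin 1a gene, whose product loosens walls of grasses, read 1162, 1139 and 954 at P4 and 141, 246 and 144 at P0 and rose 6.33-fold. Cellulose synthase CesA3 rose 4.53-fold. The gene that fell, CK163798, also belongs to glycosyl hydrolase family 16, as BRU1 does; it read 109, 140 and 70.0 at P4 and 2311, 1736 and 2240 at P0, 20.3-fold lower at P4.

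Most named genes of the chloroplast were higher in the seedling. Of 7 genes, all named by symbol, 5 were higher at P4 and 2 were not called, with a median of 2.98. Of the 5, rbcL, PsbP and petC also had probe sets that were not called, and rbcL had some called lower. PsbO and PsbP are proteins of the oxygen-evolving side of photosystem II, and petC encodes the Rieske protein of the cytochrome complex. PsbO read 1083, 976 and 1061 at P4 and 118, 109 and 128 at P0, 8.82-fold higher at P4 (log2 change 2.98, SE 0.15, adjusted p = 7.97e-09). PsbP read 1160, 1102 and 1111 at P4 and 19.5, 94.5 and 11.5 at P0, at least 24.5-fold higher. Its P0 readings scattered around the floor, and 1 of its 2 probe sets was not called.

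The petC gene rose 12.9-fold by 1 of its 2 probe sets, and RPL9, a protein of the plastid ribosome, rose 9.55-fold. The Calvin cycle genes PRK and FBP, for phosphoribulokinase and fructose bisphosphatase, were not called and lay near the floor, with PRK at 127, 11.9 and 50.1 at P4 and 12.4, 14.4 and 80.9 at P0. The large subunit of Rubisco, rbcL, which is made from the plastid genome, was matched by 28 probe sets, of which 3 were called higher, 3 lower and 22 neither. Its brightest probe set read 36502, 37111 and 34230 at P4 and 13582, 12305 and 13774 at P0, a rise of 2.72-fold. The thioredoxin Trx-M, which regulates enzymes of the chloroplast, rose at least 8.98-fold.

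**Figure D4:**
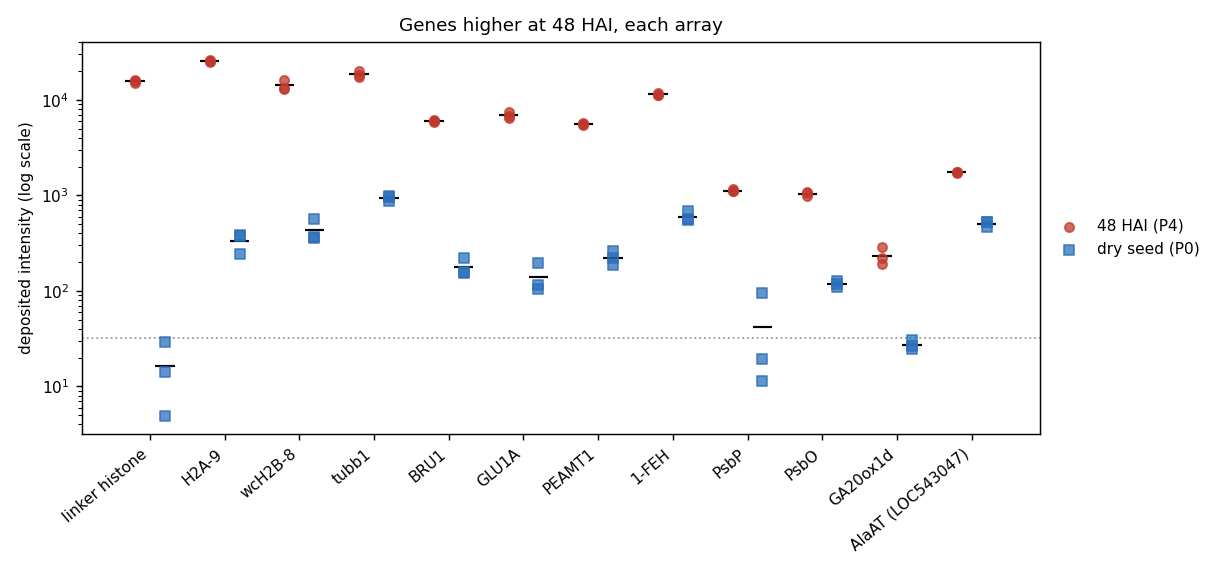
Deposited intensity on each array (log scale) of 12 genes called higher, with 3 P4 arrays (circles) left of 3 P0 arrays (squares) for each gene. Black bars are group means and the dotted line marks an intensity of 32. The groups do not overlap for any of the 12 genes, and the P0 readings of the linker histone LOC606310 (4.9 to 29.5) and of GA20ox1d (24.8 to 30.8) all lie under 32.

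Most genes for the use of sugars were higher at P4, while most genes of starch that could be named were not called. Of 12 genes for sugar use and respiration 8 were higher at P4, none was lower and 4 were not called. Over all probe sets 17.0% were higher and 23.9% lower, and 5 of the 12 genes were named through the tables of the study. The fructan exohydrolase 1-FEH, which removes fructose from fructan reserves, read 11395, 11906 and 11160 at P4 and 556, 562 and 685 at P0, 19.2-fold higher at P4 (log2 change 4.23, SE 0.13, adjusted p = 9.72e-11). Another enzyme of this kind, 6-FEH, rose 8.09-fold. A porin of the outer mitochondrial membrane read 9938, 10200 and 10079 at P4 and 1508, 1600 and 1381 at P0, 6.74-fold higher, and the non-symbiotic hemoglobin 2 rose 2.24-fold. The 4 genes not called were the invertase IVR1, which splits sucrose, PFK, of the first committed step of glycolysis, PMM and aldose 1-epimerase, with log2 changes of -0.95 (SE 0.36), -0.10 (SE 0.65), 0.20 (SE 0.32) and 0.23 (SE 0.11). IVR1 was between 2.8 and 5.6 at P4 and between 6.4 and 64.8 at P0, and PFK between 2.0 and 30.2 at P4 and between 2.2 and 47.1 at P0, so both lay near the floor. The study lists a phosphofructokinase transcript by accession that was not among the genes named here, so these PFK readings do not describe it. Aldose 1-epimerase was called higher with the medians, the hybridization controls or the poly-A controls made equal and after quantile normalization.

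Of 7 starch genes 1 was called, and alpha-amylases other than LOC543318 are not among them. Alpha-glucan phosphorylase, which frees glucose 1-phosphate from starch or malto-oligosaccharides, read 3292, 3095 and 3250 at P4 and 1083, 1021 and 964 at P0, 3.14-fold higher at P4. AGP-S, the small subunit of ADP-glucose pyrophosphorylase that commits glucose to starch, read 2757, 2818 and 3051 at P4 and 3146, 3224 and 3252 at P0. Its log2 change of -0.16 (SE 0.10) was not called, and the glucose-6-phosphate/phosphate translocator 2 gave -0.09 (SE 0.10). Both were called higher with the hybridization controls or the poly-A controls made equal.

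Nitrogen metabolism held genes that moved in opposite directions. Of 10 genes for amino acids and methyl groups 7 were higher at P4 and 3 were lower, beside 17.0% and 23.9% of all probe sets. Of the 10, 5 were named through the tables of the study. PEAMT1, the methyltransferase that starts choline synthesis, read 5791, 5657 and 5525 at P4 and 260, 186 and 222 at P0, a rise of 25.6-fold (log2 change 4.58, SE 0.13, adjusted p = 5.35e-11). Dihydrodipicolinate synthase, the entry enzyme of lysine synthesis, rose 15.6-fold, and SAHH, which clears the by-product of methylation, rose 3.33-fold.

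A pair of transcripts with the same rice description, alanine aminotransferase 2, parted. BQ804183 read 199, 116 and 119 at P4 and 3546, 3637 and 3570 at P0, a fall of 25.6-fold (log2 change -4.52, SE 0.22, adjusted p = 6.05e-09). LOC543047 read 1698, 1770 and 1765 at P4 and 468, 524 and 530 at P0, a rise of 3.44-fold (log2 change 1.75, SE 0.12, adjusted p = 1.26e-07). This enzyme moves amino groups between alanine and glutamate. The description glutamine synthetase root isozyme 2, of an enzyme that fixes ammonium, belonged to a transcript that fell 16.4-fold (BJ297605). Both falls and the rise of LOC543047 kept their call under every alternative.

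Among genes of hormones 6 of 8 were higher at P4, 1 was lower and 1 was not called. Over all probe sets 17.0% were higher and 23.9% lower, and 5 of the 8 genes were named through the tables of the study. The ABA response element binding factor, a bZIP protein that switches on genes such as Em and dehydrins in seeds, read 1415, 1616 and 1480 at P4 and 7620, 8383 and 9275 at P0 and fell 5.59-fold. Gibberellin 20-oxidases make precursors of active gibberellins. The 3 homoeologous genes of this enzyme all rose: GA20ox1d read 286, 223 and 189 at P4 and 30.8, 26.4 and 24.8 at P0, at least 7.17-fold higher, while GA20ox1a and GA20ox1b rose at least 4.28-fold and 3.80-fold. ACC oxidase 1, which makes ethylene, read 2563, 2511 and 2600 at P4 and 233, 145 and 253 at P0, 12.5-fold higher.

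Of 10 transcription factors 6 were lower at P4 and 4 were higher, beside 23.9% and 17.0% of all probe sets. Of the 10, 8 were named through the tables of the study. The NAC-domain protein 19 read 154, 215 and 169 at P4 and 4991, 4999 and 4923 at P0, 28.0-fold lower at P4. A bZIP factor (LOC606369) read 2371, 2403 and 2348 at P4 and 307, 299 and 351 at P0 and rose 7.46-fold with all 4 of its probe sets. BABY BOOM 2, of a family that promotes cell division in embryos and roots, rose 2.49-fold. The median of this list, -1.29, changed sign when the poly-A controls were made equal (0.30).

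Of 8 signalling genes 6 rose and 2 fell, beside 17.0% and 23.9% of all probe sets. All 8 were named through the tables of the study, so the share called is not independent evidence. The calcium-dependent protein kinase isoform 11 read 5971, 6134 and 5692 at P4 and 776, 814 and 840 at P0, 7.33-fold higher at P4, and Rab11C, a small GTPase of vesicle traffic, rose at least 16.1-fold. An inositol trisphosphate kinase fell 11.6-fold.

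Redox genes divided. Of 12, 5 were higher at P4, 4 were lower and 3 were not called, beside 17.0% higher and 23.9% lower of all probe sets. The tables of the study named 3 of the 12. The list median of -0.27 became positive under 3 of the other scalings. PER1, a peroxiredoxin of the embryo and aleurone of dormant grain, read 8984, 8710 and 8918 at P4 and 43807, 40272 and 39533 at P0, 4.64-fold lower at P4. The 2-Cys peroxiredoxin TSA, the chloroplast type, read 10514, 10860 and 10821 at P4 and 3801, 3540 and 3857 at P0, 2.88-fold higher. For PER1 and for TSA, 1 of 2 probe sets was not called. Lactoylglutathione lyase, which detoxifies methylglyoxal, read 344, 472 and 310 at P4 and 2.8, 5.7 and 10.9 at P0, at least 11.5-fold higher. The peroxidase Prx1 rose 5.62-fold.

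Of 14 genes for translation and protein turnover 3 were higher at P4, 8 were lower and 3 were not called. Over all probe sets 17.0% were higher and 23.9% lower, and 5 of the 14 genes were named through the tables of the study. The largest rise was that of a ubiquitin activating enzyme (CA620843), the first enzyme of ubiquitin transfer, with 10074, 10692 and 10039 at P4 and 271, 478 and 452 at P0, 26.5-fold higher at P4. A polyubiquitin transcript (BJ291458) read 263, 65.8 and 130 at P4 and 2853, 3151 and 2881 at P0 and fell 22.6-fold. PIMT, which repairs aged aspartyl residues in stored proteins, fell 6.54-fold. The elongation factor gene TEF1 read 33344, 34700 and 31802 at P4 and 28135, 27414 and 28296 at P0, and eIF-2-beta gave a log2 change of 0.09 (SE 0.13); neither was called. Both were called higher with the medians, the hybridization controls or the poly-A controls made equal. The TEF1 readings are those of 1 of its 2 probe sets, and the other was called lower. The median of this list, -0.80, was above 0 with the poly-A controls made equal (0.80).

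Of 6 membrane transport genes 2 rose and 3 fell, beside 17.0% and 23.9% of all probe sets. The tables of the study named 3 of the 6. The list median of -0.47 was above 0 with the hybridization controls (0.24) or the poly-A controls (1.04) made equal. The plasma membrane proton pump ha1 rose 1.90-fold and the malate transporter ALMT1 rose 1.93-fold, while the vacuolar cation/proton exchanger 1b fell 5.71-fold. Of 6 defence genes 4 rose, none fell and 2 were not called, beside the same shares of all probe sets. The tables of the study named 3 of these 6 defence genes. The beta-glucosidase GLU1A, which releases benzoxazinoid toxins from their stored glucosides in wheat seedlings, read 7525, 6440 and 6755 at P4 and 115, 195 and 106 at P0, 51.6-fold higher at P4 (log2 change 5.53, SE 0.20, adjusted p = 4.92e-10). The pathogenesis-related proteins PR5 and wci were not called.

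The arrays of the intermediate stages place these end points. EM averaged 46866 at 12 HAI, 8478 at 24 HAI and 900 at 36 HAI, so most of its fall came after 12 HAI. WGA2 averaged 4456, 1920 and 981 at those stages and had lost most of its level by 12 HAI. H2A-9 averaged 785 at 12 HAI, 21437 at 24 HAI and 27454 at 36 HAI, while the linker histone LOC606312 already averaged 12897 at 12 HAI. GLU1A averaged 164, 2682 and 8566, and PsbO 181, 375 and 757, and PsbO averaged 1040.1 at P4.

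Some end points hid larger swings between them. The non-symbiotic hemoglobin 2 averaged 13406 ± 312 at 12 HAI (SD, n = 3), above both its 1266 ± 104 at P4 and its 570 ± 101 at P0. The ABA response element binding factor averaged 12168 at 12 HAI, above its dry seed mean of 8426. The beta-expansin 1a gene averaged 5324 at 24 HAI and 5513 at 36 HAI, against 1085 at P4 and 177 at P0. The difference of P4 and P0 does not show such peaks.

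**Figure D5:**
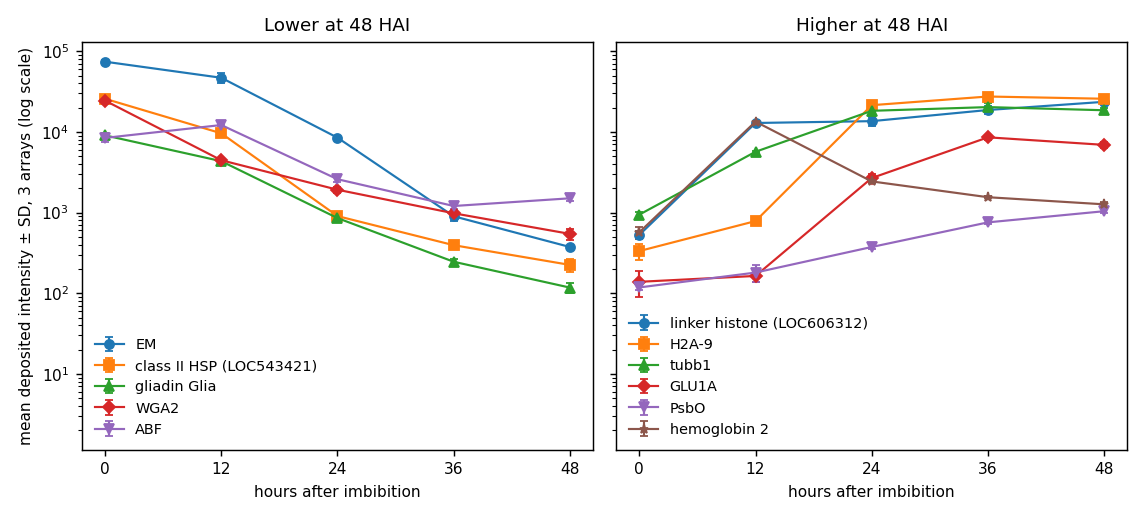
Mean deposited intensity ± SD of 3 arrays (log scale) against hours after imbibition for 5 genes lower and 6 genes higher at 48 HAI than in the dry seed. EM, the heat shock protein, Glia and WGA2 have a lower mean at each later stage, ABF and hemoglobin 2 have their highest mean at 12 HAI, and H2A-9 is near 785 at 12 HAI and at 21437 by 24 HAI.

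Probe sets of the same transcript cluster did not always move together. Of 8842 sequence clusters with at least 2 probe sets, 3607 had at least 2 called, 795 had every probe set higher, 1065 had every probe set lower, and 602 had at least 1 called higher and at least 1 called lower. Among the 78 named genes with 2 or more probe sets, 5 had both directions: H2A-3, rbcL, DMAS1, the 14-3-3-like protein GF14-6 and aldose 1-epimerase. For DMAS1, a reductase of the phytosiderophore pathway, 1 probe set was 1.39-fold lower and 2 were 2.18-fold and 1.39-fold higher at P4, so no direction is given for that gene. PER1, TSA, Prx1, 6-FEH, alpha-glucan phosphorylase, calcium-dependent protein kinase isoform 11, GAG56D, Glu-D3 and avnlb each had 1 probe set that was not called.

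Some of the largest changes belonged to probe sets without a name. TaAffx.131916.1.S1_at read 14748, 15112 and 14085 at P4 and 32.4, 8.3 and 5.2 at P0, at least 456-fold higher at P4. Ta.28316.3.S1_at was at least 493-fold higher. Ta.13744.1.S1_at read 9.5, 2.3 and 5.1 at P4 and 11606, 14315 and 14960 at P0, at least 423-fold lower. Ta.25025.2.S1_at read 180, 172 and 155 at P4 and 73141, 67280 and 63680 at P0, 403-fold lower, with both stages well above the floor. By its identifier this probe set shares a sequence cluster with the EMH2 probe sets described above. The named linker histone LOC606310 and the transcript CD490513 had changes of similar size.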

How the data were processed

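Total RNA of germinating seeds was measured on 15 arrays, 3 for each of 5 stages, and P4 was compared with P0. The authors deposited each probe set as a MAS5 intensity on a linear scale, with a trimmed mean near 500 on every array; the methods also name RMA, which these columns are not. The members and lists were chosen with earlier results of these data known. After 16 was added and log2 taken, 5 stage means were fitted to 61115 probe sets in limma 3.58.1 under R 4.3.3 with moderated variances, and two-sided p of P4 minus P0 were adjusted with the Benjamini-Hochberg method. The fit was tested on simulated data. Rice matches with an E-value above 1e-05 were kept out of the lists. Wheat symbols came from the array's annotation table and the RefSeq gene table of IWGSC CS RefSeq v2.1, used for names only. Genes were chosen for the text by a rule: the study's own genes with a matching accession or cluster, the 15 largest named rises and falls, and per list the 4 largest called and 2 smallest changes (all genes of lists of up to 6), and the 2 largest rises and falls without a name. Of 106 genes with values in the text, 20 fall outside it and were chosen after their values were seen, and 52 of the 138 genes it chose are left without values. Alternatives covered the added value, dim probe sets, arrays, scaling and replicates. The number of arrays limits the precision.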

Additional observations from a re-analysis of the deposited data

Results flagged for a closer look

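A control probe set that the comparison left out, AFFX-Ta_CYP86-TA_3_at, read at least 336.8 on the P4 arrays and at most 21.5 on the P0 arrays, so its lowest P4 reading was 15.7 times its highest P0 reading. It was picked out because it lay outside the tested probe sets and differed between the stages.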

How the results depend on the processing

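Rises numbered 10407 in the text, 24410 with the poly-A controls made equal and 9609 to 10151 with 1 array left out. Falls numbered 14580, against 8447 with the medians, 5243 with the hybridization controls and 2249 with the poly-A controls made equal, and 12071 to 13945 with 1 array left out. Deviations of same-numbered P4 and P0 arrays correlated at r of 0.050, 0.008 and 0.002, which cannot decide whether the replicates were paired. The fit with a replicate block gave 10335 rises and 14553 falls. Of all named genes, that fit lost the calls of GST (LOC542994) and GSTZ1 and gained that of raftin1b. GST (LOC542994) and GSTZ1 are redox genes whose values the text does not give.

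Of the lists, with the poly-A controls made equal 8 grain inhibitor genes, 1 transport gene and 4 translation genes were lower and 8 redox genes were higher, and with the hybridization controls made equal 5 translation genes were lower. In the 6 arrays alone 4 amino acid genes were higher. Starch had 1 gene higher in the text, 2 with 64 added, medians made equal or quantile normalization, 4 with the hybridization controls and 6 with the poly-A controls made equal, and 1 to 2 with 1 array left out.

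Of 86 called genes with values in the text, 82 kept their direction and call under every alternative that tested them. XIP-I and FKBP70 lost their call as described. The avenin-like gene avnlb turned to a log2 change of 0.64 with the poly-A controls and lost its call with the hybridization controls made equal. DMAS1 turned to 0.27 and 1.12 with the hybridization and the poly-A controls made equal. Of genes not called in the text, the poly-A controls gave 1.02 for LOC542946, 1.28 for tubb2, 1.27 for profilin, 1.43 for AGP-S, 1.50 for the glucose-6-phosphate/phosphate translocator 2 and 1.06 for wci, and the hybridization controls gave 0.58 for AGP-S and 0.65 for the translocator. The cause was not tested. Values near the floor have no reliable order, and detection calls were not used here.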
